A study of Mus musculus with 8 samples.

Results

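The peaks described here are the regions of 5-hydroxymethylcytosine (5hmC) that were called in embryonic stem cells (ESCs) after knockdown of Suz12 and in neither control list, and they are called gained peaks. They were selected on peak score and on overlap between the peak lists. A gained peak was a nuclear peak of the shSuz12 library with a score of at least 50 that overlapped, by 1 bp or more, no peak of the full lists of shGFP ESCs and of untransfected ESCs. Of the 138705 nuclear shSuz12 peaks, 77189 reached this score, and 15204 of them were gained. The other 61985 overlapped a control peak and serve as the comparison. The series holds 948510 nuclear peaks in 6 libraries.

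5hmC was mapped by GLIB-Seq, in which 5hmC in sonicated genomic DNA is glucosylated, biotinylated, captured and sequenced. The ESC libraries were from E14 cells, a mouse ESC line grown with leukemia inhibitory factor: untransfected cells, cells that carried a GFP hairpin as control (shGFP) and cells that carried a Suz12 hairpin (shSuz12), both transfected. The methods describe puromycin selection for the Suz12 hairpin, and for the shGFP cells it is not given in the sources used here. The methods name more than 1 hairpin against Suz12, and the labels do not say which was used for this library. The libraries set beside them were from C57BL/6 mouse embryonic fibroblasts (MEFs; embryonic day 11 in the labels, a later day in the methods) and from brain and liver of C57BL/6 mice of 8 weeks. Each condition had 1 library, so no difference below has a replicate check and no test was run. Intervals are exact 95% binomial intervals and cover counting error only. Peak lists hold no transcript levels, so neither the fall of Suz12 nor the identity of the cells could be checked, and the RNA-Seq of the series was not analysed here.

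5hmC is made from 5-methylcytosine by the Tet dioxygenases, of which Tet1 is abundant in ESCs. In ESCs 5hmC lies over gene bodies, distal regulatory regions and promoters of intermediate CpG content. Suz12 is a core subunit of Polycomb repressive complex PRC2, together with Eed and the methyltransferases Ezh1 and Ezh2, which places H3K27me3 on the CpG-rich promoters of developmental regulators. The comparison of shSuz12 with its controls asks whether 5hmC in ESCs depends on PRC2, and the gained peaks are the regions called on the side opposite to a loss.

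Sequences of gained peaks are shown for the peak with the highest score, for another high-scoring peak that shares a stretch with it, for a high-scoring peak inside a gene, for the gene with the most gained peaks per 100 kb, and for the newly covered promoter with the most bases under a peak. Each is the central 200 bp of the peak on the plus strand of NCBIM37 (mm9), with CpG dinucleotides, the usual place of 5hmC, in capitals.
Intergenic, chr4:24120674-24120873: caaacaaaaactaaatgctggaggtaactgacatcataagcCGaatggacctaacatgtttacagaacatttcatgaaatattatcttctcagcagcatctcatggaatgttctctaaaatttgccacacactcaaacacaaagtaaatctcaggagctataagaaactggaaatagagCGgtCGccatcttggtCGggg
Intergenic, chr15:47081464-47081663: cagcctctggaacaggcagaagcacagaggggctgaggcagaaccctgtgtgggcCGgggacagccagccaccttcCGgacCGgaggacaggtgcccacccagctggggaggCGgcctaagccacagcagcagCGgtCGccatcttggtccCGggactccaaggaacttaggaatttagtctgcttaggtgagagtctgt
Intron of Smurf1, chr5:145669741-145669940: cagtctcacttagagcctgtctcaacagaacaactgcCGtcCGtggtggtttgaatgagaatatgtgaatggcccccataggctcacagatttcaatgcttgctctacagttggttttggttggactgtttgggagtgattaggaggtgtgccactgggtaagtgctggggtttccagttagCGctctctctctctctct
Intron of Eed, chr7:97105370-97105569: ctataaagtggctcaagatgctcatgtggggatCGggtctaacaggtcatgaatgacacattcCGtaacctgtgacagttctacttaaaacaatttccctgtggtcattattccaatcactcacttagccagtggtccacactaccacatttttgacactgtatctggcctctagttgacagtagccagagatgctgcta
Promoter of Mfap5, chr6:122456134-122456333: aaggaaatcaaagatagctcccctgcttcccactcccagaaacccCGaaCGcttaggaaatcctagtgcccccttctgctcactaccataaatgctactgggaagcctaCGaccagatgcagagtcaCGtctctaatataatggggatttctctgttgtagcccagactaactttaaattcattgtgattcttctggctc

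The window on chromosome 4 belongs to the gained peak with the highest score, 201.9, and holds 4 CpGs at a GC content of 39.5%. The window on chromosome 15, from a peak of score 188.15, holds 7 CpGs at a GC content of 63.0%. The pair share a stretch of 19 bases, agCGgtCGccatcttggtc, which had 6224 copies in the genome on either strand. It was held by 11 of the 15204 gained peaks (0.0723%, 0.0361 to 0.129%) and by 11 of the 61985 other shSuz12 peaks (0.0177%, 0.00886 to 0.0318%). Neither peak met a peak of MEFs, brain or liver, and the nearest control peak was 37988 bp away on chromosome 4 and 196226 bp away on chromosome 15. The Smurf1 window holds 3 CpGs, the Eed window 2 and the Mfap5 window 4.

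The gained peaks were 19.7% of the shSuz12 peaks with a score of at least 50 (95% interval 19.4 to 19.98%). The rule fixes this share, which is a description and not a measure of gain. The same rule turned round, for shGFP peaks with no overlap in the full shSuz12 and ESC lists, gave 24098 of 132996 shGFP peaks, or 18.1% (17.9 to 18.3%). The full shSuz12 list starts at a lower score than the shGFP list. With only shSuz12 peaks of a score of at least 50 in its place, the count was 27772, or 20.9% (20.7 to 21.1%). The order against the 19.7% of shSuz12 thus turned on this choice. Of the ESC peaks, which all have a score of at least 80, 30.4% met no peak of the other ESC lists (30.1 to 30.6%). At this score the share was 7.96% in shSuz12 (7.61 to 8.31%) and 8.49% in shGFP (8.29 to 8.69%). Unmatched peaks were thus found in each of the 3 ESC libraries, the 2 control libraries included. The lists also start at different scores, 80 in ESCs, 50.02 in shGFP and 30.34 in shSuz12, so a gained peak may lie over signal that was below the limit in a control. Of the 77189 peaks, 56.7% overlapped both controls, 18.3% ESCs alone and 5.22% shGFP alone.

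Gained peaks lay mostly at the low end of the score. Their median score was 61.1, against 70.1 for the other shSuz12 peaks, and their median width was 454 bp against 637 bp. The share gained fell with the score: it was 28.9% from 50 to 60, 21.3% from 60 to 80, 12.2% from 80 to 100 and 3.46% at 100 or more (3.14 to 3.81%). The unmatched shGFP peaks followed the same course, with 34.4%, 27.4%, 17.7% and 5.21% in these bins. In each bin the share was larger in shGFP than in shSuz12. The share gained also fell with width, from 54.7% of the peaks below 300 bp to 34.1%, 17.5% and, at 700 bp or more, 6.27%. Narrow peaks of this kind were almost restricted to 1 list, since 3115 shSuz12 peaks and 1 shGFP peak were below 300 bp.

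**Figure D1:**
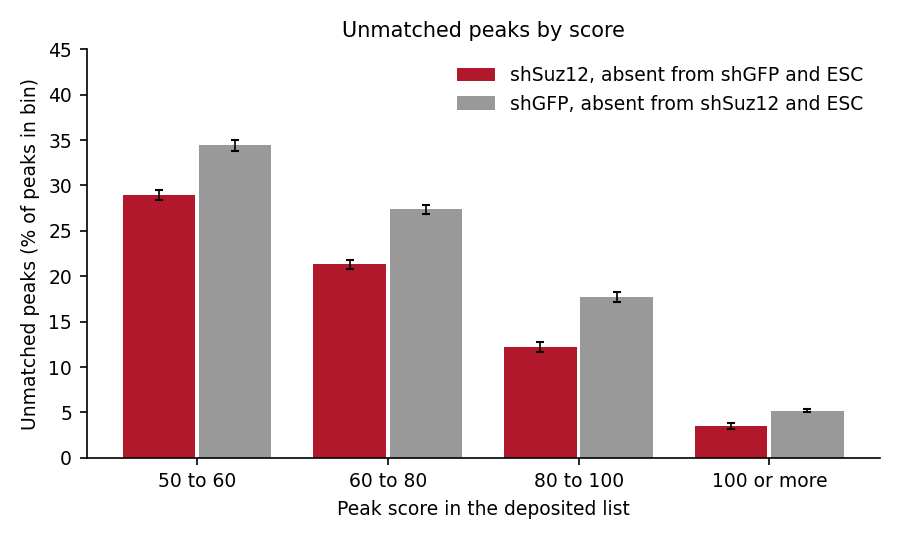
The bars give, for each bin of peak score, the percentage of peaks absent from the other ESC lists, for shSuz12 (red) and for shGFP (grey), with exact 95% intervals. Both fall with the score, from 28.9% to 3.46% in shSuz12 and from 34.4% to 5.21% in shGFP.

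A few score values recurred among the gained peaks. The 5 values 55.12, 65.44, 76.2, 87.37 and 98.91 were each held by at least 100 gained peaks and together by 5967 of them (39.2%, 38.5 to 40.0%). The same values were held by 12.2% of the other shSuz12 peaks, and each by 0 to 58 shGFP peaks. Of all shSuz12 peaks at these values 44.2% were gained (43.3 to 44.99%), against 14.5% of the rest (14.2 to 14.8%). The gained peaks at these values had a median width of 328 bp and the others one of 568 bp. The part of the tied scores in the results was not tested, and values without them are given where they differ most.

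The limits of the rule cut through neighbouring values. The lowest gained score was 50.02, and the highest score of an unmatched peak below the limit was 49.99. The unmatched peaks numbered 669 from 50 to 51 and 580 from 49 to 50. The smallest overlap that excluded a peak was 1 bp, and 321 gained peaks lay less than 50 bp from a control peak.

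Gained peaks were placed by their midpoint at promoters (the TSS ± 1 kb of a protein-coding gene), in other exons, in introns or between genes. Introns held 7433 of the 15204 and intergenic sequence 6548, so that these accounted for 48.9% (48.1 to 49.7%) and 43.1% (42.3 to 43.9%). Exons held 922 (6.06%, 5.69 to 6.46%) and promoters 301 (1.98%, 1.76 to 2.21%). Gene bodies, exons and introns together, thus held 54.95% (54.2 to 55.7%).

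The gained peaks were placed less often in exons and at promoters than the other shSuz12 peaks, which is a description of 1 library. Of the other peaks 13.6% lay in exons (13.4 to 13.9%) and 3.42% at promoters (3.27 to 3.56%), and 62.5% in gene bodies. Introns took almost the same share of both, 48.9%. Intergenic sequence, 61.8% of the genome, held 34.1% of the other peaks. Of the unmatched shGFP peaks 5.20% lay in exons (4.92 to 5.49%), 3.50% at promoters (3.27 to 3.74%), 43.6% in introns and 47.7% between genes. Their exon share was thus nearer to that of the gained peaks, and their promoter share nearer to that of the other shSuz12 peaks. Relative to its share of the genome, the density of gained peaks was 2.39 in exons, 1.44 in introns, 1.24 at promoters and 0.697 between genes. The order was the same for the other shSuz12 peaks, with 5.37, 1.43, 2.15 and 0.551, except that promoters came before introns.

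**Figure D2:**
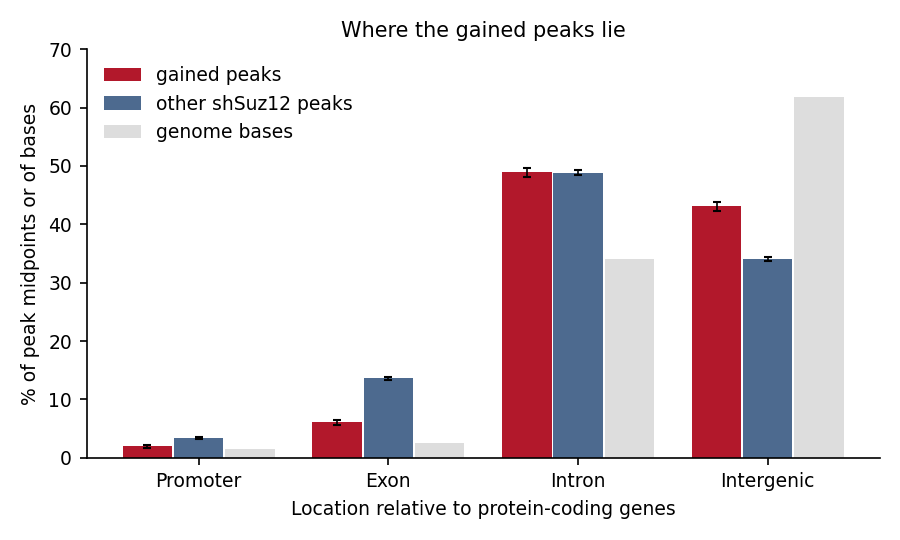
The bars give the percentage of gained peak midpoints (red), of the midpoints of the other shSuz12 peaks (blue) and of genome bases (light grey) in each class of location, with exact 95% intervals for peaks. Gained peaks lie in exons at 6.06% against 13.6% and between genes at 43.1% against 34.1%.

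The control lists cover these classes unequally, which bears on how often a shSuz12 peak can miss them. shGFP or ESC peaks covered 30.6% of exon bases, 16.8% of promoter bases, 11.9% of intron bases and 4.65% of intergenic bases. The share of shSuz12 peaks that was gained ran in the opposite order, with 9.83% in exons, 12.4% at promoters, 19.7% in introns and 23.7% between genes. The part of the covered length in the location of gained peaks was not tested. Location also differed within exons. Of the gained exon peaks 57.6% had their midpoint in coding sequence (54.3 to 60.8%), against 68.2% of the other exon peaks (67.1 to 69.1%).

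Around the TSS, the gained share was lowest just downstream. In the first 1 kb after the TSS, 104 gained and 1066 other shSuz12 peaks had their midpoint, so 8.89% were gained. In the 1 kb before it the share was 15.8%, and from 2 to 3 kb upstream it was 21.9%. Along the gene body the gained peaks were spread evenly, with 9.60% to 10.9% of them in each of 10 equal parts of the gene. The other shSuz12 peaks rose towards the gene end, where the last part held 13.6% of them, against 9.05% to 11.2% in the rest. The median distance to the nearest TSS was 34958.5 bp for gained peaks and 23649 bp for the others.

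Gained peaks were poorer in CpG than the other shSuz12 peaks. The central 200 bp held a median of 3 CpGs and a GC content of 47.5%, against 4 CpGs and 51.5%. At least 5 CpGs were found in 24.8% of the gained peaks (24.1 to 25.5%) and in 49.01% of the others (48.6 to 49.4%). The median GC content of gained peaks was 47.5% to 48% in each bin of score, and that of the others 51% to 53%. The unmatched shGFP peaks also had a median of 3 CpGs, and 27.4% of them had at least 5 (26.8 to 28.0%).

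Repeated sequence was more frequent under gained peaks. With 8 stretches of 24 bp read from each central window, a peak was taken as repeated when 4 or more stretches had at least 10 copies in the genome, a measure chosen after other results were known. It applied to 602 gained peaks (3.96%, 3.66 to 4.28%) and to 1.48% of the other shSuz12 peaks (1.39 to 1.58%). In the unmatched shGFP peaks the value was 3.37% (3.15 to 3.61%). Of the 10 gained peaks with the highest scores, the one on chromosome 15 shown above and one on chromosome 5 at 3181545 to 3181772 were repeated, with a median of 1180.5 and 778 copies.

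Of the 10 gained peaks with the highest scores 3 lay in protein-coding genes, all in introns. The peak in Smurf1, an E3 ubiquitin ligase of BMP signalling, had a score of 198.11 and was also found in MEFs and liver. The peak in Pisd, which makes phosphatidylethanolamine in mitochondria, had a score of 179.3 and was also found in liver. The peak in Tcf7l1, a repressor of Wnt targets in ESCs, had a score of 169.74 and was also found in MEFs, brain and liver. The remaining 7 were intergenic, and 1 of them was also found in a tissue, the brain. Some of these peaks lay beside control peaks, as 184 bp separated the Tcf7l1 peak and 190 bp the Smurf1 peak from the nearest, and others far from any, as those shown above on chromosomes 4 and 15.

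Gained peaks were often close to control peaks. The median distance to the nearest shGFP or ESC peak was 1930.5 bp, and 71.2% of the gained peaks had one within 5 kb (70.4 to 71.9%). Within 500 bp the share was 21.4%, and 2585 gained peaks were 10 kb or farther away. The median distance to the nearest other gained peak was 32282 bp, and 21.6% of the gained peaks had another within 10 kb. Gained peaks numbered 15204, against 132996 shGFP and 171865 ESC peaks, so this distance and that to control peaks cannot be compared. In windows of 1 Mb the median was 4 gained peaks and the highest 25, in the window that holds most of Wwox.

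Many of the gained peaks coincided with a peak of MEFs, brain or liver, which the rule did not use. By an overlap of 1 bp or more, MEF peaks met 4117 of them (27.1%, 26.4 to 27.8%), brain peaks 3370 (22.2%, 21.5 to 22.8%) and liver peaks 3224 (21.2%, 20.6 to 21.9%). At least 1 of the 3 held 7319 (48.1%, 47.3 to 48.9%). MEFs alone held 13.2%, liver alone 8.83% and brain alone 7.73%, and 605 peaks (3.98%, 3.67 to 4.30%) were found in all 3. The lists start at different scores, 30 in MEFs and brain and 80 in liver, so the order of the tissues is not one of 5hmC. With tissue peaks of a score of at least 80 MEF peaks met 11.4%, brain peaks 6.08% and liver peaks 21.2%, so that liver was the highest.

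The other shSuz12 peaks were found in the tissues more often. MEFs held 52.8% of them (52.4 to 53.2%), brain 49.04% (48.6 to 49.4%), liver 42.2% (41.8 to 42.6%) and at least 1 list 77.996% (77.7 to 78.3%). All 3 tissues held 17.9% of them. The unmatched shGFP peaks were close to the gained peaks, of which MEFs held 30.4% (29.8 to 31.0%), brain 22.2% (21.6 to 22.7%), liver 21.4% (20.9 to 21.9%) and at least 1 list 49.5% (48.9 to 50.1%). As a measure of coverage, the midpoint of a gained peak lay under a MEF peak in 23.5%, a brain peak in 19.0% and a liver peak in 19.0%. The lists cover 7.83%, 7.34% and 6.39% of the genome.

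**Figure D3:**
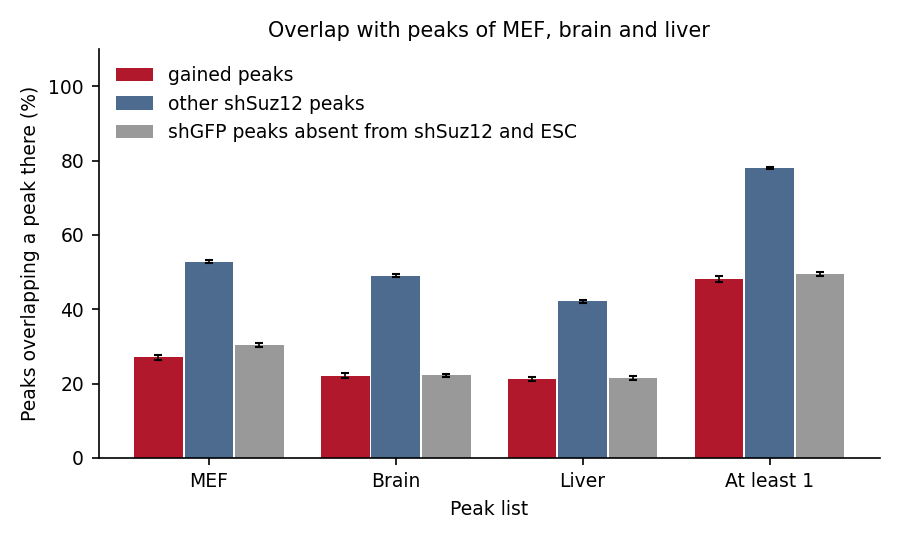
The bars give the percentage of gained peaks (red), other shSuz12 peaks (blue) and shGFP peaks absent from shSuz12 and ESCs (grey) that overlap a peak of MEFs, brain, liver or at least 1 of them, with exact 95% intervals. Gained peaks reach 48.1% in at least 1, close to 49.5% for the unmatched shGFP peaks and below 77.996% for the other shSuz12 peaks.

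The lower overlap of gained peaks was also seen within bins of score and of width. At a score from 50 to 60, 48.1% of gained and 74.6% of other peaks were found in at least 1 tissue, and at 100 or more 52.5% and 85.9%. At a width of 700 bp or more the MEF list held 38.1% of the gained and 60.4% of the other peaks, and below 300 bp 19.1% and 39.0%. Gained peaks at the 5 recurrent scores were found in at least 1 tissue in 40.4% (39.1 to 41.6%), and gained peaks at other scores in 53.2% (52.1 to 54.2%). Repeated gained peaks were found in at least 1 tissue in 18.4% (15.4 to 21.8%), against 49.4% of those not repeated.

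The tissues that held gained peaks varied with the location of the peaks. Between genes, MEF peaks met 26.1%, brain peaks 14.2% and liver peaks 11.5%. In introns the lists were nearly level, with 28.9%, 29.0% and 28.2%. In exons the order was turned round, as MEF peaks met 20.2% (17.6 to 22.9%), brain peaks 26.6% (23.7 to 29.6%) and liver peaks 32.9% (29.8 to 36.0%). At promoters, MEF peaks met 24.6% (19.8 to 29.9%), brain peaks 12.6% (9.09 to 16.9%) and liver peaks 22.3% (17.7 to 27.4%). The other shSuz12 peaks had the same order between genes, with 52.5%, 35.2% and 27.6%, while in exons brain was highest, with 45.1%, 62.1% and 55.1%. Gained peaks 10 kb or more from any control peak met a MEF peak in 21.4%, a brain peak in 13.9% and a liver peak in 8.55% (7.50 to 9.69%). Those within 500 bp of a control peak were found in 31.3%, 28.7% and 27.9%.

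Chromosome 8 stood apart. It had 850 gained and 7082 other shSuz12 peaks, so that 10.7% were gained (10.04 to 11.4%), against 20.6% on the other 18 autosomes together (20.3 to 20.9%), where single values ran from 16.4% on chromosome 11 to 26.3% on chromosome 13. Gained peaks themselves were not scarce there, at 6.45 per Mb against 4.58 to 8.09 on the other autosomes. It was the other shSuz12 peaks that were dense, at 2.30 times their mean over the genome, where the other autosomes had 0.632 to 1.71 times. Control peaks covered 15.2% of chromosome 8 and 5.48% to 13.6% of the other autosomes. At a score of 100 or more, 18 of 1895 peaks of chromosome 8 were gained (0.9499%), against 3.95% on the other autosomes. The share of shGFP peaks that were unmatched was also lowest there among the autosomes, at 9.87% against 14.7 to 22.8%, while their density was 0.955 times their mean over the genome. Chromosome X was at the other end, with 111 gained and 70 other peaks (61.3% gained, 53.8 to 68.5%) and 0.277% of its bases under control peaks. Chromosome Y had 0.184% of its bases under control peaks but 3 gained and 15 other peaks (16.7%, 3.58 to 41.4%), so that it did not follow this pairing. Whether the covered length sets these shares was not tested.

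**Figure D4:**
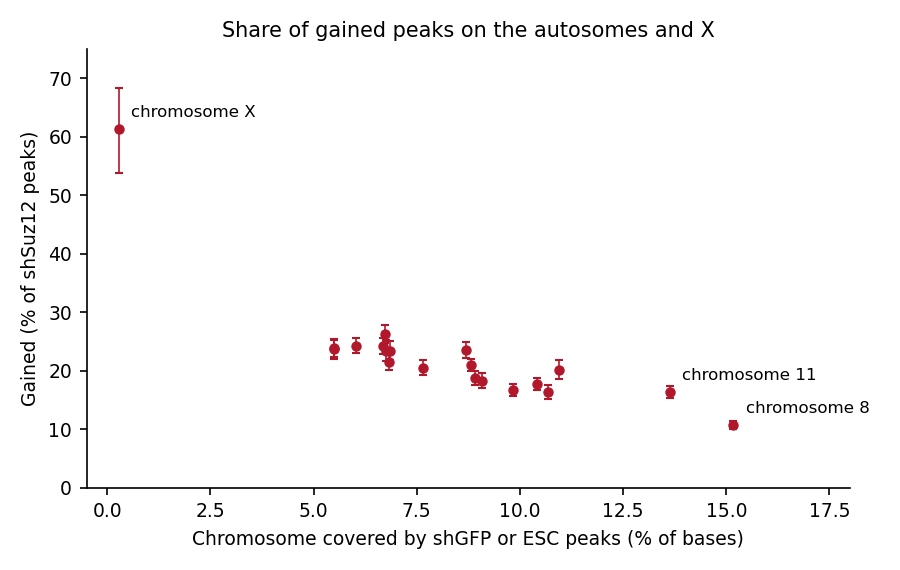
Each point is an autosome or chromosome X, placed by the percentage of its bases under shGFP or ESC peaks (horizontal) and by the percentage of its shSuz12 peaks that were gained (vertical), with exact 95% intervals. Chromosome 8 is lowest, at 10.7% gained and 15.2% covered, and chromosome X highest, at 61.3% and 0.277%. Chromosome Y, with 3 gained and 15 other peaks, is not drawn.

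Gained peaks were scattered over many genes. Of the 22367 protein-coding genes 4858, or 21.7%, held the midpoint of at least 1 gained peak, and 3046 of these held exactly 1. At least 5 were found in 238 genes and 10 or more in 27. The 10 genes with the most held 2.45% of the midpoints and the 100 with the most 11.0%. Length counted for much. A gained peak was found in 5.68% of the genes below 20 kb and in 75.2% of those of 200 kb or more, but the genes of 20 to 50 kb had the most per length, 1.08 per 100 kb, and those of 200 kb or more the fewest, 0.624. The genes of 200 kb or more held 16.5% of all gained peaks and make up 15.1% of the genome, while they held 13.1% of the other shSuz12 peaks. The exact 95% interval of the share of gained peaks was 15.9 to 17.1%.

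The genes with the most gained peaks were all long. A predicted gene, Gm20388 (chromosome 8), held 44 and Fgfr2 (chromosome 7), a fibroblast growth factor receptor, 41. The annotation draws them over 4435 kb and 3009 kb, where they overlap 74 and 32 other protein-coding genes. When each peak was given to the shortest gene that spans it, an alternative chosen after these genes were seen, they kept 28 and 13. The spans drawn for these genes thus set much of their counts.

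Cdh13, a cadherin without a cytoplasmic domain, and Wwox, a WW-domain oxidoreductase at a fragile site, held 22 each on chromosome 8. Cdh13 held 106 shGFP and 148 ESC peaks, and Wwox 174 and 257, so the gained peaks lay among many others. In Cdh13, 7 of the 22 were also in brain, 3 in MEFs and 0 in liver, where its 1041 kb held 0 peaks. In Wwox, 12 were also in MEFs, 6 in brain and 5 in liver. Auts2 (chromosome 5), which is linked to neural development and binds a variant of PRC1, held 18 gained and 23 other shSuz12 peaks with a score of at least 50. Brain held 7 of the 18, MEFs 5 and liver 0.

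The next 5 genes, with 13 gained peaks each, were Etl4, Odz4 (a teneurin), Pde4d (a cAMP phosphodiesterase), Ptprg (a receptor tyrosine phosphatase) and Sgms1 (a sphingomyelin synthase). Sgms1 (chromosome 19) was the shortest of them, with 267 kb and 4.87 gained peaks per 100 kb. Of its 13 gained peaks 11 were in at least 1 tissue, and MEFs, brain and liver held 7 each. Their scores ran from 50.11 to 98.91. In Odz4 8 of 13 were in a tissue, and in Etl4, Pde4d and Ptprg 6 of 13.

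Per length, the densest gene of at least 20 kb with at least 4 gained peaks was Eed, the PRC2 subunit that binds H3K27me3. It lies on the minus strand of chromosome 7 from 97103166 to 97129493 and held 4 gained peaks in 26.3 kb, or 15.2 per 100 kb. All 4 were intronic, with scores of 73.93, 54.15, 57.12 and 55.86. The library lists held 6 peaks in Eed in shSuz12, 4 in shGFP, 5 in ESCs, 4 in liver, 1 in brain and 0 in MEFs. The 4 gained peaks lay between shGFP and ESC peaks, at 206 to 575 bp from the nearest, and only the first, which gives the sequence above, was also in a tissue, the liver. The remaining 2 shSuz12 peaks of Eed overlapped peaks of both shGFP and ESCs.

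The other dense genes were Myl4, an atrial myosin light chain (8.87 per 100 kb), Cbx5, the heterochromatin protein HP1 alpha (8.29), Atxn2, an RNA-binding protein (7.61), Car12, a carbonic anhydrase (7.52), Elfn1 (7.49), Ctnnal1 (7.37), Slc12a7, a potassium-chloride cotransporter (7.17), Lemd3, an inner nuclear membrane protein (7.15), and Osbpl11 (6.87). Over all genes pooled there were 0.852 per 100 kb. Atxn2 had the most among these, 8 gained peaks, of which liver held 5, brain 3 and MEFs 0. In Slc12a7, liver held 5 of 6. In Myl4, MEFs held 3 of 4 and brain and liver 0. In Car12 the 4 gained peaks were all of its shSuz12 peaks, and lay 952 to 5775 bp from a control peak. Rank among genes with 4 gained peaks turns on single peaks, so these genes are examples and no more.

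Promoters with a gained peak were few. A gained peak covered at least 1 bp of the TSS ± 1 kb in 408 genes, or 1.82% of all, and in 272 of them no shGFP or ESC peak did. No promoter was covered over its whole 2000 bp, and the median was 355.5 bp. By CpG content, a gained peak was found in 1.85% of high-CpG promoters (1.56 to 2.17%), 2.51% of intermediate ones (2.12 to 2.96%) and 1.39% of low-CpG ones (1.16 to 1.65%). Intermediate promoters also led for shGFP peaks, with 37.5% against 22.4% of high-CpG and 24.9% of low-CpG promoters. Among the shSuz12 peaks at promoters, the gained share was largest in the high-CpG class, at 18.5% (15.2 to 22.1%), against 12.5% and 9.32%.

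Among promoters without control peaks, that of Mfap5, a microfibril protein of the extracellular matrix, had the most bases under gained peaks, 958 of 2000 bp. The peak spans from 108 bp upstream to 849 bp downstream of the TSS, has a score of 84.52 and was also found in MEFs, whose peaks covered 1699 bp of this promoter. Agpat9, an acyltransferase of triglyceride synthesis, had 946 bp under a peak of score 85.24 that was in no tissue. Rassf8, whose annotated gene is 1.13 kb long, had 894 bp under 2 gained peaks, and the one at the TSS was also in MEFs, brain and liver. Kif6, a kinesin, had 882 bp under a peak of score 54.42 with 21 CpGs in its central 200 bp. Its nearest control peak was 12724 bp away and it was in no tissue.

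The remaining newly covered promoters with the most bases were those of Qprt (828 bp), an enzyme of NAD synthesis, of the neighbours Gm6034 and H2-T22, an MHC class I gene (815 bp under 1 shared peak), of Cercam (771 bp), of 1110057K04Rik (763 bp) and of Mob3b (757 bp). The peaks of Qprt and 1110057K04Rik were also in liver, and that of Mob3b was also in MEFs, brain and liver. The peak of Gm6034 and H2-T22 was in none, and neither was that of Cercam. H2-T22 belongs to a family of similar genes, and how well reads there can be placed was not tested.

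Of 31 genes of the Polycomb complexes 10 held 27 gained peaks. These are 32.3% of the genes, against 21.7% of all protein-coding genes. The Polycomb genes are longer, with a median of 31.4 kb against 15.4 kb, and 27.8% of all genes of 20 to 50 kb held a gained peak. Pooled, they had 1.94 gained peaks per 100 kb against 0.852 for all protein-coding genes. Their median per 100 kb, like that of all genes, was 0. Of their shSuz12 peaks 26.2% were gained, against 17.3% over all genes. None of the 31 promoters had a gained peak, a count that shows nothing at 1.82% of all promoters. The list was drawn up with earlier results of these data known, and no test was made.

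PRC2 members and cofactors held most of them. Jarid2, which helps to recruit PRC2, held 5 in 192 kb, Eed 4, Ezh2, the methyltransferase, 3 in 65.1 kb, and Aebp2, a cofactor, 3 in 56.0 kb. In Ezh2 the gained peaks were 3 of its 4 shSuz12 peaks, with scores of 56.79, 73.49 and 52.42, and 2 of the 3 were also in liver. ESCs had 1 peak in Ezh2, shGFP 3 and liver 7, and no shSuz12 peak of Ezh2 overlapped a control peak at a score of at least 50. Suz12 itself held 0 gained peaks, with 2 shSuz12, 1 shGFP and 3 ESC peaks in the gene. The other PRC2 members and cofactors of the list, Ezh1, Mtf2, Phf1, Phf19, Rbbp4 and Rbbp7, also held 0. Among PRC1 genes, Kdm2b held 4, Phc2, Rybp and Scmh1 2 each, and Pcgf3 and Pcgf5 1 each. The other PRC1 genes of the list, Ring1, Rnf2 and Bmi1 among them, held 0.

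**Figure D5:**
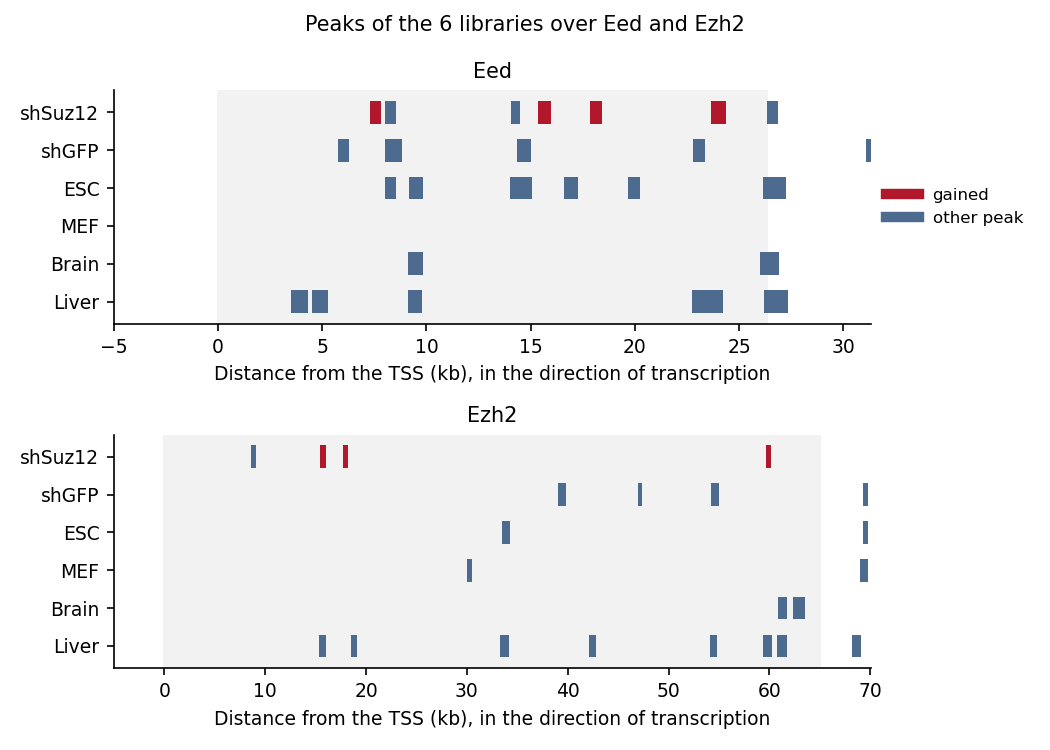
Peaks of the 6 libraries are drawn over Eed and Ezh2, with the distance from the TSS in kb on the horizontal axis, the gene span shaded, gained peaks in red and all other peaks in blue. Eed has 4 gained peaks among shGFP and ESC peaks, and Ezh2 has 3, of which 2 coincide with liver peaks.

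Developmental regulators are the usual H3K27me3 targets, and their promoters were counted beside the 1.82% of all promoters with a gained peak. Of 40 Hox genes 3 promoters had one (7.50%), but all of them also had control peaks. They were those of Hoxb6 and of Hoxa3, which the annotation holds as 2 genes. In the gene span, 6 of the 40 Hox genes held a gained peak (15%, against 21.7% of all genes), and 1 peak of Hoxa3 counts for 2 of them. Hox genes are short, with a median of 4.08 kb, and had 1.74 gained peaks per 100 kb pooled against 0.852 for all genes. In Hoxd8 and Hoxd10 shSuz12 had no other peak. No promoter of the 43 forkhead genes, the 42 Sox, Gata and T-box genes and the 29 Wnt and Frizzled genes had a gained peak. At 1.82% of all promoters, a count of 0 in lists of this size shows nothing about these genes. Their gene spans held 14, 14 and 5 gained midpoints, in 7, 7 and 4 genes (16.3%, 16.7% and 13.8%, against 21.7% of all genes). Of the 113 other homeobox genes 3 had one at the promoter (2.65%), and none of the 3 had a control peak there: Zfhx4 (524 bp), Evx2 (334 bp) and Lhx9 (79 bp).

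The Evx2 peak has a score of 76.2, one of the recurrent values, and lies 4667 bp from a control peak. The Zfhx4 peak has a score of 56.59 and 1 CpG in its central 200 bp. Neither was in a tissue. Of 46 FGF and BMP genes, Fgf14 and Bmp3 had a gained peak at the promoter (4.35%), both beside control peaks. The list held 58 gained midpoints in 13 genes (28.3%, against 21.7% of all genes), and 41 of the midpoints were those of Fgfr2. The median length of its genes was 26.7 kb, and 27.8% of all genes of 20 to 50 kb held a gained peak.

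None of the promoters of 25 pluripotency genes and 42 germline genes had a gained peak, which at 1.82% of all promoters again shows nothing about lists of this size. In the gene span, 5 of the 25 pluripotency genes held a gained peak (20%, against 21.7% of all genes). Their median length was 7.145 kb, against 15.4 kb, and they had 1.21 gained peaks per 100 kb pooled against 0.852. Esrrb, an orphan nuclear receptor of the ESC network, held 2 gained and 19 other shSuz12 peaks, and Prdm14, Klf5, Tbx3 and Dppa2 1 gained peak each. Pou5f1, a core factor of the ESC network, held none. Among 28 genes of DNA methylation and demethylation, 10 held 13 gained peaks (35.7% of the genes, against 21.7% of all), or 1.05 per 100 kb pooled against 0.852. These genes are longer, with a median of 20.8 kb against 15.4 kb. Of all genes of 20 to 50 kb, 27.8% held a gained peak, at 1.08 per 100 kb. Tet1 held 2, beside 11 other shSuz12 peaks, and Tet2, Tet3 and Dnmt3a 1 each. At promoters Idh1 (226 bp, no control peak) and Apobec4 (563 bp) had one, 2 of 28 against 1.82% of all. Of 54 extraembryonic lineage genes, the promoters of Krt19 and Rhox2d had one (3.70%), that of Rhox2d without a control peak.

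Of all protein-coding genes, with a median length of 15.4 kb, 21.7% held a gained peak, which is the share to set beside the counts of the families that follow. Of the 1113 olfactory receptor genes 2 held a gained peak, of the 320 vomeronasal receptor genes 4, of 371 Zfp genes 57, of 84 ribosomal protein genes 1, of 67 histone genes 2 and of 24 clustered protocadherins 1. Except for the Zfp genes (14.7 kb), these families have short genes, with median lengths of 0.530 to 3.47 kb. The protocadherins were rich in other shSuz12 peaks, with 7.14 per 100 kb pooled against 4.07 over all genes. The 4 vomeronasal receptor genes, Vmn2r3, Vmn2r63, Vmn2r82 and Vmn2r111, held 5 gained peaks, and no other library had a peak in any of them. They belong to a family of similar genes, and how well their reads can be placed was not tested. Of 80 long neuronal adhesion genes 48 held a gained peak, the highest share of the 21 lists, and their median of 0.103 per 100 kb was the only one above 0. Pooled, however, they had 0.366 per 100 kb, below the 0.852 of all genes.

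The remaining lists were those of ion channels, with 52 of 166 genes (31.3%) and 4 promoters (2.41%), glutamate and GABA receptors, with 19 of 48 genes (39.6%) and 3 promoters (6.25%), and collagens and laminins, with 24 of 54 genes (44.4%) and 0 promoters, beside 21.7% of all genes and 1.82% of all promoters. Their genes are long, with medians of 41.8, 126 and 111 kb, and per length they were below the 0.852 of all genes, with 0.552, 0.352 and 0.654 per 100 kb pooled. Kcnmb1, a potassium channel subunit, had the widest cover in the first, 650 bp of its promoter, and held no shGFP or ESC peak. The glutamate receptor gene Grin3a had 618 bp of its promoter under 2 gained peaks, which lay 44904 bp and 46832 bp from a control peak, and the upstream one was also in MEFs.

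Kdr, the VEGF receptor, and Cdc25a, a cell cycle phosphatase, are among the genes that the study examined. Kdr held 2 gained peaks, with scores of 57.24 and 65.44, at 39091 to 39752 bp and 25955 to 26332 bp downstream of the TSS. The first was also in MEFs. Cdc25a held 1, with a score of 70.39, at 1981 to 2452 bp downstream of the TSS, which was also in brain. No gained peak lay within 1 kb of the TSS of either gene. At Kdr, however, shSuz12 peaks that did not meet the rule covered 526 bp of this window, and shGFP and ESC peaks 0 bp.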

How the data were processed

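GLIB-Seq peaks of 6 libraries were analysed. Base calling was by CASAVA 1.8. Reads were aligned to mm9 by the authors with Bowtie 0.12.7, unique hits were kept and redundant reads collapsed, and each library was given its own MACS 1.4.1 peak list. Peak scores are as deposited, and were taken here to be on the scale of MACS, which grows with the negative log10 of the p-value. The control and threshold are not given in the sources used here, and scores are not normalised between libraries. The lists hold no read counts, so depth is unknown. The files were deposited as positions with a score, and mitochondrial peaks were left out.

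Overlaps of 1 bp or more were computed with Python 3.11.15, numpy 2.4.6 and pandas 2.3.3, intervals with scipy 1.17.1, and sequence was read with pysam 0.24.0 from NCBIM37 with the GENCODE M1 annotation (22367 protein-coding genes, matched by symbol). A peak in a gene has its midpoint in the gene span. Promoter CpG classes were read over 500 bp windows from -700 to 200 bp of the TSS. Steps were tested on simulated data. Named genes were the 10 with most gained peaks, the 10 with most per 100 kb, the 10 promoters with most newly covered bp, the genes of the 10 highest scores, 4 genes of the study, and genes of the 21 lists with a gained peak at the promoter, up to 4 per list. Polycomb, Tet, pluripotency, Hox and vomeronasal members with no gained peak at the promoter were named after their values were seen. Members and lists were chosen with earlier results of these data known. Alternatives were other scores, controls, distances, promoter widths and overlap rules.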

Additional observations from a re-analysis of the deposited data

How the results depend on the processing

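The number of gained peaks was 1877 at a minimum score of 80, 37029 with no minimum, 29366 when absence from shGFP alone was asked, 11951 with no control peak within 500 bp and 9237 without the 5 recurrent scores. In the same order of settings where the value left the interval of the main one, gene bodies held 56.6% (score of 80), 59.2% (shGFP alone) and 53.5% (500 bp), and exons 5.48% (no minimum), 8.53% (shGFP alone) and 5.67% (without recurrent scores). By any overlap, promoters held 2.61%, gene bodies 56.3% and exons 12.003%. With all annotated genes, promoters held 3.24% and gene bodies 56.6%. With promoters of ± 500 bp and ± 2000 bp the share was 0.816% and 4.49%.

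In MEFs, brain, liver and at least 1 tissue the shares were 29.5%, 24.5%, 22.6% and 50.5% at a score of 80, 34.8%, 32.1%, 29.4% and 60.1% with shGFP alone, 25.9%, 20.4%, 19.4% and 45.7% at 500 bp, 28.1%, 23.1%, 21.9% and 49.7% for widths of at least 300 bp, and 30.6%, 25.4%, 23.7% and 53.2% without the recurrent scores. They were 22.9% in brain with no minimum score, 23.6%, 19.0%, 19.0% and 43.6% with 50% of the peak covered, and 23.5%, 19.0%, 19.0% and 43.5% by midpoint. With tissue scores of at least 80 they were 11.4% in MEFs, 6.08% in brain and 31.0% in at least 1.

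Of 76 values, 27 stayed within the main interval, or within 1.5 times the main count. The share of gained peaks at promoters, in exons, in gene bodies and in each tissue list was below that of the other shSuz12 peaks in 49 of 49 comparisons over 7 settings that redefined or trimmed the peaks. The widths of at least 300 bp, the removal of chromosome 8 and the recurrent scores were chosen after the data had been seen. No paired analysis was possible because there is a single library of each. The lowest scores of the lists, the unknown depth and the narrower shSuz12 peaks limit what absence from a list means, and cannot be told apart from the knockdown.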
